A study of Mus musculus with 16 samples.

Results

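The kallikreins described here are 7 secreted serine protease genes, Klk5, Klk6, Klk7, Klk8, Klk10, Klk11 and Klk13, and they are described with 3 protease inhibitor genes, Cst6, Cstb and Spink5. These 10 genes were found by symbol among 55357 gene rows of a back skin table and 56953 gene rows of a table of hair follicle stem cells, and all 10 have a row in both. The list was drawn up with the eKO against control values of both tissues in view, several of the genes having been seen to be higher in eKO. That comparison is therefore given for them as a description. Where the number of members past a threshold is given, it stands beside the same share over all genes and is no evidence for the members.

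The study compared mice labelled Control with mice labelled GRK2 eKO, all of strain C57BL/6. The skin groups were 5 Control and 5 GRK2 eKO libraries of whole back skin from animals aged 8 months. The stem cell groups were 3 Control and 3 GRK2 eKO libraries of CD34+ α6-integrin+ bulge cells sorted from skin, with an age of 18 months in their labels and of 8 months in the design text of the series. GRK2, encoded by Grk2, is a kinase that phosphorylates activated G-protein-coupled receptors. The labels do not spell out eKO, name no promoter or Cre line, and do not state whether each library came from its own animal, so the spread between libraries may be partly technical.

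In the outer epidermis and the upper hair follicle, kallikreins cleave the corneodesmosomes that hold dead keratinocytes together, and so let the surface shed. They work as a cascade, in which Klk5 can activate other kallikreins. LEKTI, the product of Spink5, blocks several of them directly, whereas the cystatins encoded by Cst6 and Cstb block a different class, the cysteine proteases such as cathepsins and legumain.

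Values are the authors' normalised read counts, and differences between genotypes are on the log2(value + 1) scale with a standard error (SE) from a limma fit over all genes of a table. A library held 11640611 to 14163394 reads assigned to genes in control skin and 8213632 to 16383486 in eKO skin. In stem cells it held 6428488 to 6729777 in control and 6428584 to 9387378 in eKO. Grk2 was at 1298 ± 144 in control and 1110 ± 93.8 in eKO skin (SD, n = 5 each, range 1100 to 1492 against 980 to 1224). In stem cells it was at 135 ± 12.0 against 114 ± 8.68 (SD, n = 3 each, range 121 to 144 against 104 to 122). The log2 difference was -0.22 (SE 0.10, limma adjusted p 0.343) in skin and -0.24 (SE 0.23, limma adjusted p 0.501) in stem cells, and neither passed the threshold. Of 10 bulge markers tested in stem cells, 2 rose, 1 fell and 7 did not pass: Krt15 stood at 114323 ± 2287 in control and 105841 ± 12306 in eKO and Cd34, an antigen of the sort, at 1255 ± 87.3 and 1186 ± 32.2 (SD, n = 3 each). Itga6, which encodes the other antigen, rose 1.49-fold (limma adjusted p 5.1e-04) and Postn 1.31-fold (0.0044), while Lgr5 fell from 7376 ± 112 to 3833 ± 165 (SD, n = 3 each, limma adjusted p 2.85e-06). The summed values of 4 Y-linked genes were at 1.90 in skin control replicate 5 and 0.642 in skin eKO replicate 3, against 2297 to 2762 in the other 8 skin libraries. In stem cells they ran from 2340 to 2476 in the control and from 704 to 831 in the eKO libraries, so sex-linked expression and genotype cannot be told apart there.

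The kallikrein genes lie next to each other on chromosome 7. In the RefSeq annotation of GRCm38.p6 the order is Klk14, Klk13, Klk12, Klk11, Klk10, Klk9, Klk8, Klk7, Klk6, Klk5, Klk4, and after these Klk2-ps, Klk15 and the Klk1 family. The submitters' processing notes name GRCm39, so this older annotation is used for the order and for sequences only. Of 37 Klk genes and pseudogenes in the cluster, 4 had over 100 reads in some library, and these are the adjacent genes Klk8, Klk7, Klk6 and Klk5. A further 9 were above 0 but held at most 21 reads in any library, and 24 were listed at 0 in all 16 libraries. The zeros include the 5 adjacent genes Klk13, Klk12, Klk11, Klk10 and Klk9.

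**Figure D1:**
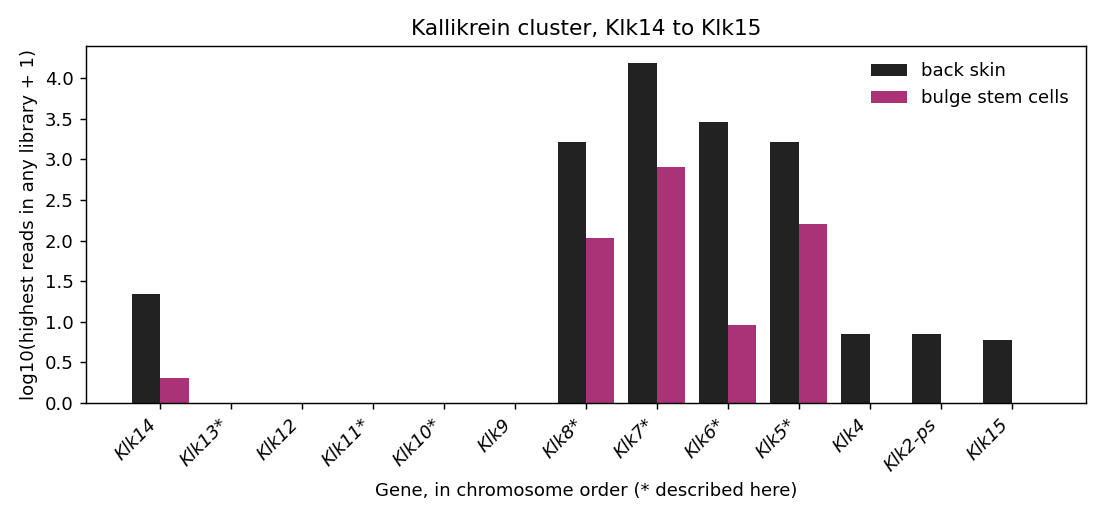
Highest number of recovered reads in any library, as log10(reads + 1), for the first 13 genes of the kallikrein cluster in chromosome order, in back skin (black) and bulge stem cells (purple). Klk8 to Klk5 form the block with signal, with Klk7 reaching 15495 reads in skin, and no bar stands over Klk13 to Klk9.

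Klk10, Klk11 and Klk13 are thus listed at 0 in every library of both tissues. B2m, Rpl24 and Rpl35a, genes that nearly every cell uses, are listed at 0 in all libraries as well, as are Timp1 and Timp3. A listed 0 in these tables is for that reason not read as absence of the transcript, and nothing is said of the expression of these 3 kallikreins. How reads were assigned where gene models overlap or copies are alike is not given in the sources used here, and the kallikreins are related in sequence, so their values are uncertain to that extent.

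The promoter table of RefSeq (GRCm38.p6) holds windows for the 7 kallikreins and not for the other members used here. The stretches before the outermost annotated start of Klk6, Klk7 and Klk8 are printed because these 3 neighbours had the larger differences described below among the kallikreins. All are on the plus strand, at chr7:43824294-43824437 for Klk6, chr7:43811044-43811293 for Klk7 and chr7:43797327-43797531 for Klk8. For Klk6 and Klk8 the RefSeq gene starts inside the 250 bases before the transcript start used in the table, so 144 and 205 bases are printed.
Klk6: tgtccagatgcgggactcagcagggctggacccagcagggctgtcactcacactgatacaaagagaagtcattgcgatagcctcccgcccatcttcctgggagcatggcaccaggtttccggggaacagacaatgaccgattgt
Klk7: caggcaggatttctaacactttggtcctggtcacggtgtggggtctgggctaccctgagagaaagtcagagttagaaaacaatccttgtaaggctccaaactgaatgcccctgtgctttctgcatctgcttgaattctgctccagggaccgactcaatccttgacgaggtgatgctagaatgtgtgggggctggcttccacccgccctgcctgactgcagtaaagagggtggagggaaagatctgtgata
Klk8: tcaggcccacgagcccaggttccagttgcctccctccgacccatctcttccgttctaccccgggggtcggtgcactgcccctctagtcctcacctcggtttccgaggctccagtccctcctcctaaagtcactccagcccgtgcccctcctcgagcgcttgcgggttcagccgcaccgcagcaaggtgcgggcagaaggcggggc

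A search of the full 250 bases before each transcript start, on both strands, covered 4 motifs. The TATA box, spelled TATAAA, was in 12.4% of all 32851 windows of that length. The CCAAT box was in 33.8% of these windows. The AP-1 motif, spelled TGANTCA, was in 6.75%. The grainyhead motif, spelled AACNGGTT, was in 1.79%. None of the 4 was found in any window of Klk5, Klk6, Klk7, Klk8, Klk10, Klk11 or Klk13, which is why no base is in capitals above, and says only that these letters are not there. The windows differed in base content, with G and C making up 65.2% for Klk8, 55.2% for Klk6 and 52.4% for Klk7, where the median of all windows was 52.4%.

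In control skin, Klk7 was the most abundant of the kallikreins on a scale per length. On the scale of reads divided by library total and exon length (RPKM), its level was 235 ± 49.9, followed by Klk5 at 54.2 ± 10.2, Klk8 at 14.0 ± 4.38 and Klk6 at 8.03 ± 5.28 (SD, n = 5 each). In each control skin library Klk8 had more reads than Klk6, at 227, 381, 356, 180 and 196 against 125, 365, 125, 113 and 54. Their exon lengths were 1540 and 1513 bases, and the difference was not tested. In control stem cells, on the same scale, Klk7 at 7.28 ± 2.47 and Klk5 at 4.60 ± 0.56 lay above Klk8 at 1.41 ± 0.38 (SD, n = 3 each), and Klk6 was at 0 in all 3 libraries. The share of all reads, in RPM without regard to length, was lower in stem cells: Klk7 was at 446 ± 94.5 RPM in control skin and 13.8 ± 4.68 RPM in control stem cells (SD, n = 5 and n = 3). The inhibitors stood in the same relation, with Cst6 at 323 ± 43.6 and 5.49 ± 0.63 RPM and Spink5 at 324 ± 63.2 and 14.3 ± 2.00 RPM, and Cstb, with a smaller gap, at 33.8 ± 5.33 and 18.0 ± 3.20. The tables come from different kits and were normalised separately, so these levels are set side by side and not tested. The labelled age differs too, at 8 months for skin and 18 months for stem cells (8 months in the design text).

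In eKO skin, Klk6 had the largest difference of the members, about 10.1-fold by the group means, while Cst6 and Cstb were 3.44-fold and 2.68-fold higher. The other kallikreins were higher by smaller factors, and Spink5 was nearly level. Of the 7 members that passed the filter on low values in skin, 3 (Klk6, Cst6 and Cstb) passed the limma threshold upward and 0 downward, and the same 3 had groups that did not overlap. Over all 16589 genes tested in skin, 0.229% passed upward and 0.145% downward, and 1.74% had non-overlapping groups with eKO higher and 2.45% with eKO lower. Since the members were chosen with this comparison in view, nothing is read from their count.

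Klk6, a trypsin-like kallikrein, was at 118, 308, 131, 105 and 51.3 in the control libraries and at 2585, 459, 1312, 1189 and 1673 in the eKO libraries of skin. Every eKO library lay above every control library and eKO replicate 2 was the lowest of its group. The log2 difference was 3.36 (SE 0.50).

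Klk7, a chymotrypsin-like kallikrein that cleaves corneodesmosin, was at 4126, 4765, 7221, 5173 and 4605 in control and at 9499, 6990, 9949, 11274 and 10464 in eKO skin. The groups overlapped through control replicate 3 and eKO replicate 2 alone. The log2 difference was 0.91 (SE 0.18).

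Klk8, known from skin and brain as neuropsin, was at 215, 321, 372, 168 and 186 in control and at 355, 347, 350, 1534 and 639 in eKO skin. Of the eKO libraries, 3 lay inside the upper part of the control range and the highest, replicate 4, was far above the rest. The log2 difference of 1.14 (SE 0.41) was 0.76 without that library.

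Klk5, the starter of the cascade, was at 718, 1000, 1067, 793 and 636 in control and at 824, 1071, 974, 1543 and 1195 in eKO skin. The groups overlapped between 824 and 1067, and the log2 difference was 0.41 (SE 0.19).

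Cst6, which encodes cystatin M/E, was at 4127, 3457, 4729, 3140 and 3363 in control and at 17550, 9440, 16447, 6848 and 14360 in eKO skin. All eKO libraries exceeded all controls, and eKO replicate 4, the highest for Klk5, Klk7 and Klk8, was the lowest for Cst6. The log2 difference was 1.71 (SE 0.25).

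Cstb, which encodes the intracellular cystatin B, was at 386, 496, 443, 302 and 341 in control and at 1254, 735, 948, 1096 and 1249 in eKO skin. The groups were separate, with a log2 difference of 1.42 (SE 0.18).

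Spink5 was at 3274, 3526, 5109, 2973 and 3963 in control and at 4754, 3996, 4242, 3734 and 4060 in eKO skin. All eKO libraries lay inside the control range, and the log2 difference was 0.16 (SE 0.14).

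**Figure D2:**
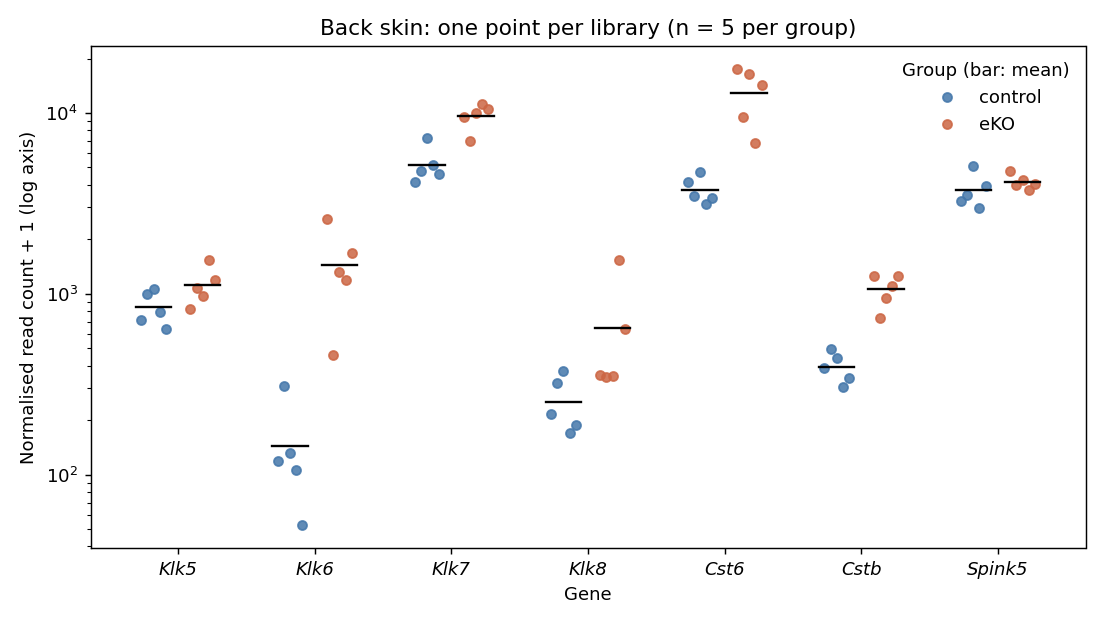
Normalised read count + 1 on a log axis for the 7 members with reads in back skin, 1 point per library in control (blue) and eKO (orange), with the group mean as a bar. Klk6, Cst6 and Cstb show no overlap between groups, the eKO library at 1534 stands apart for Klk8, and the Spink5 groups lie at the same height.

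The skin values depended on single libraries in their calls more than in their size. Over 19 alternatives the Klk6 difference ran from 3.04 to 3.73, that of Cst6 from 1.57 to 1.92 and that of Cstb from 1.33 to 1.54, with no change of direction. The number of members past the threshold ran from 0 (without eKO replicate 1, and without the 2 libraries low in Y-linked genes) to 4, and it was 1 (Cstb) without control replicate 1 or 5 or eKO replicate 3 or 5. Klk7 joined Klk6, Cst6 and Cstb in DESeq2, with the hair covariate, and without eKO replicate 2. Without control replicate 3, Klk7 and Cstb passed and Klk6 and Cst6 did not. Of the fits leaving out 1 library, Klk6 kept its call only without control replicate 2 or 4 or eKO replicate 2. Cst6 kept it only without control replicate 4 or eKO replicate 2 or 4. Without the 2 libraries low in Y-linked genes, no gene of the table passed in limma, with 1790 genes at an unadjusted p under 0.05.

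In sorted stem cells of eKO mice, Cst6 was 9.47-fold, Klk7 6.47-fold and Klk8 5.04-fold higher by the group means, with Cstb and Klk5 at 2.32-fold and 2.18-fold. Klk6 was near the detection limit. Of the 6 members that passed the filter on low values, 5 (all but Spink5) passed the limma threshold upward and 0 downward, and these 5 had non-overlapping groups. Over all 13784 genes tested in stem cells, 10.7% passed upward and 8.74% downward, and 18.9% had non-overlapping groups with eKO higher and 17.4% with eKO lower. As in skin, nothing is read from the members' count. Klk5 was below the threshold without any 1 of the libraries except eKO replicate 3, with no filter, with a value minimum of 1, with library totals and with the replicate block. Klk6 was above it with no filter and with a value minimum of 1, and Spink5 without eKO replicate 2.

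Klk7 was at 101, 120 and 58.0 in control and at 606, 630 and 568 in eKO stem cells. The eKO libraries lay close together and well above the controls, with a log2 difference of 2.74 (SE 0.24).

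Klk8 was at 10.97, 18.93 and 14.0 in control and at 79.6, 69.1 and 72.4 in eKO stem cells. The groups were separate at a low level, with a log2 difference of 2.29 (SE 0.42).

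Klk5 was at 35.9, 46.3 and 42.0 in control and at 122, 84.4 and 63.9 in eKO stem cells. The groups did not overlap, but the eKO libraries were spread widely and the log2 difference was 1.06 (SE 0.35).

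Klk6 had 0 reads in each control library and 4, 6 and 8 reads in the eKO libraries of stem cells. It did not pass the filter on low values. Its eKO mean was 1.98 times a floor of 3 reads per control library, which allows for counting error in the control only. Replicate 1 of eKO, at 3.03, lay below that floor's value of 3.05, so no least fold difference is given.

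Cst6 was at 31.9, 38.9 and 40.0 in control and at 412, 247 and 391 in eKO stem cells. Every eKO library was far above the controls, with a log2 difference of 3.18 (SE 0.27).

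Cstb was at 95.7, 133 and 135 in control and at 352, 182 and 308 in eKO stem cells. The groups were separate, and eKO replicate 2 was the lowest of its group for Cstb, Cst6, Klk8 and Spink5. The log2 difference was 1.17 (SE 0.26).

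Spink5 was at 108, 82.0 and 99.0 in control and at 142, 107 and 234 in eKO stem cells. The groups overlapped at 107 and 108, and the log2 difference of 0.67 (SE 0.30) was 0.36 without eKO replicate 3.

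**Figure D3:**
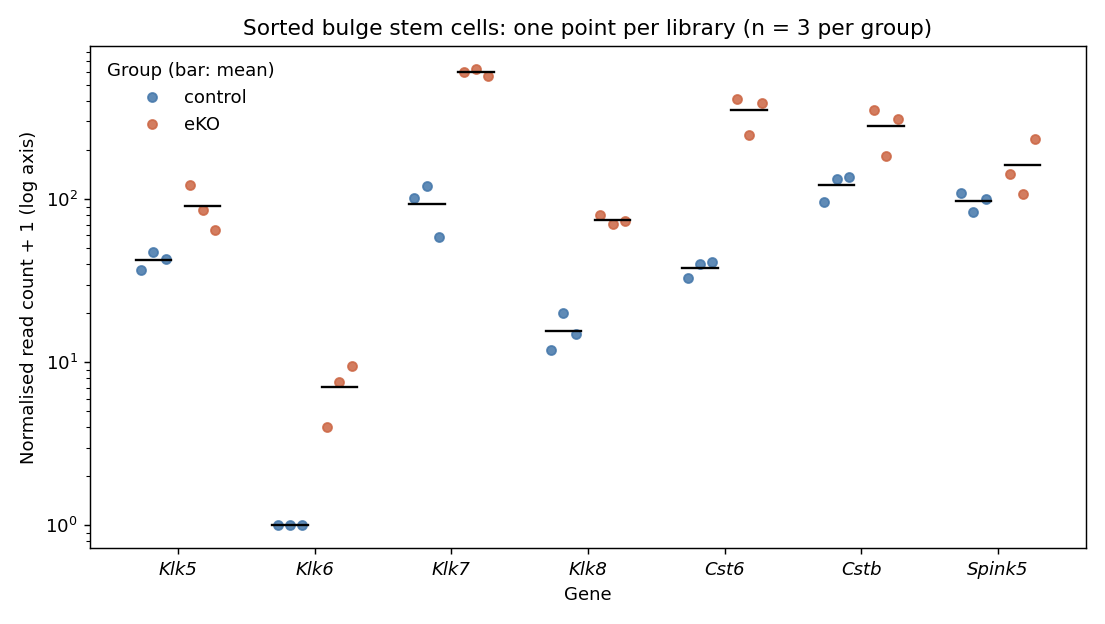
Normalised read count + 1 on a log axis for the 7 members with reads in sorted bulge stem cells, 1 point per library in control (blue) and eKO (orange), with the group mean as a bar. Klk7, Klk8 and Cst6 show wide gaps between groups, Klk6 sits at 0 in all controls, and the Spink5 groups touch.

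Side by side, the log2 difference was 0.91 in skin and 2.74 in stem cells for Klk7, 1.14 and 2.29 for Klk8, 0.41 and 1.06 for Klk5, and 1.71 and 3.18 for Cst6. For Cstb it was 1.42 and 1.17. Spink5 had the smallest difference among the members fitted in each tissue. Whether the tissues differ was not tested, as the members were chosen on these values.

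**Figure D4:**
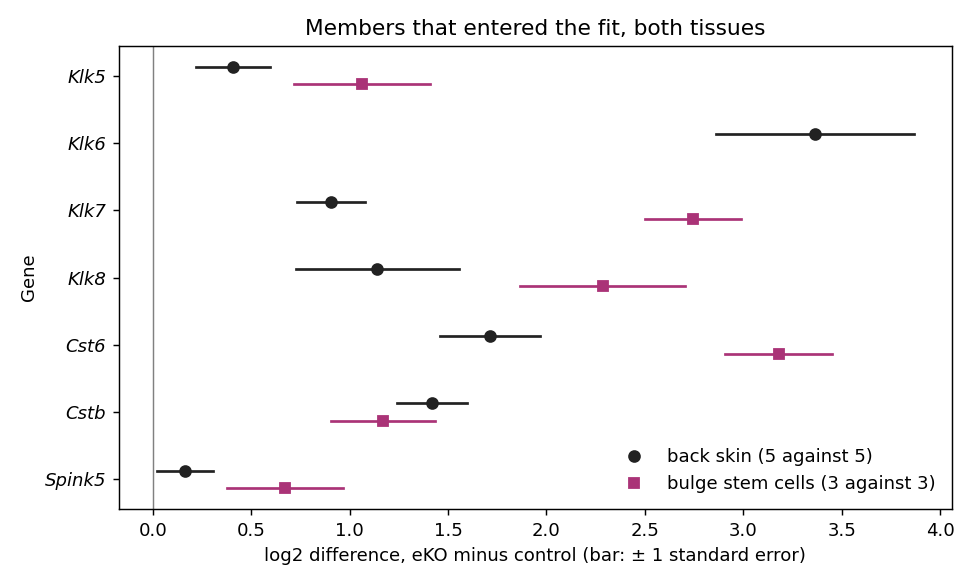
log2 difference, eKO minus control, with a bar of 1 standard error to each side, for the members fitted in back skin (black circles, 5 against 5 libraries) and in bulge stem cells (purple squares, 3 against 3). Klk6, fitted in skin only, lies at 3.36, and Cst6 and Klk7 lie at 3.18 and 2.74 in stem cells.

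Markers of several other cell types rose along with the members, and those of others did not. In bulk RNA more cells of a type and more RNA per cell cannot be told apart. Over all genes tested in stem cells, 10.7% rose and 8.74% fell. Of the genes tested there, 2 of 5 basal epidermis markers rose. Of 3 dermal fibroblast markers Dcn rose, and Col1a1 and Col1a2 did not pass. Col1a2 was at 116 ± 21.2 in control and 54.8 ± 33.7 in eKO (SD, n = 3 each, limma adjusted p 0.0524). The summed fibroblast list ran from 134 to 156 in control and from 84.4 to 134 in eKO, with Lum listed at 0. The 1 adipocyte marker tested, Fabp4, rose, while Adipoq and Cidec were listed at 0. Of 3 leukocyte markers 1 rose and 1 fell, and 0 of 3 melanocyte and 0 of 1 skeletal muscle markers passed. In stem cells, the differentiated epidermis list (10 genes, 8 tested) had 5 genes that rose and 1 that fell, and its summed value ran from 11442 to 13910 in control and from 24307 to 27150 in eKO. Krt1 went from 1098 ± 326 to 9713 ± 264 (SD, n = 3 each, limma adjusted p 8.27e-08), while Lor, a marker of the outermost living layer, was at 30.3 ± 17.9 and 8.98 ± 8.26 (limma adjusted p 0.113) and Sbsn was listed at 0. The upper follicle list in stem cells (5 genes, 4 tested) had 4 genes that rose, with sums of 879 to 946 in control and 3033 to 3682 in eKO, and Plet1 was listed at 0. Krt79, its upper follicle keratin, went from 162 ± 31.1 to 2205 ± 260 (SD, n = 3 each, limma adjusted p 2.66e-08). The stressed keratinocyte list had 4 of 4 tested genes that rose (sums of 369 to 423 in control, 1135 to 1269 in eKO). The hair matrix and shaft list had 9 of 10 (654 to 742, 2557 to 2892) and the endothelium list 6 of 6 (13.7 to 44.0, 1002 to 1196). The sebaceous gland list had 4 of 6 (2831 to 2947, 9654 to 11029). Most of its sum was Scd1, at 1764 ± 80.2 in control and 7602 ± 939 in eKO (SD, n = 3 each). Awat2 of this list went from 21.7 ± 6.81 to 12.6 ± 3.10 (SD, n = 3 each, limma adjusted p 0.427). Awat1, Dgat2l6 and Scd3 did not pass the filter on low values and had lower means in eKO.

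In skin, 0 of 9 tested differentiated epidermis genes passed in limma, with sums of 147089 to 235155 in control and 169003 to 405391 in eKO, and Sbsn listed at 0. The upper follicle list had 1 of 4 genes that rose, with sums of 6508 to 11668 in control and 16195 to 29640 in eKO, and Plet1 listed at 0. The sebaceous gland list had 2 of 9 genes that rose, with sums of 12051 to 60172 in control and 38850 to 62580 in eKO: Cidea went from 181 ± 56.3 to 522 ± 96.9 and Far2 from 1357 ± 376 to 3482 ± 834 (SD, n = 5 each, limma adjusted p 0.0308 and 0.042). The stressed keratinocyte list had 0 of 8 genes past the threshold and a median log2 difference of 2.31, with sums of 2943 to 16988 in control and 7340 to 30624 in eKO. No other marker list had a gene past the threshold in skin. Over all genes tested in skin, 0.229% rose and 0.145% fell. The part of the listed cell types in the members' values was not tested.

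Per 1000 units of the summed differentiated epidermis list, Klk7 ran from 4.17 to 9.52 in control and from 22.3 to 25.9 in eKO stem cells, Cst6 from 2.79 to 3.09 and from 10.2 to 15.9, and Klk8 from 0.959 to 1.503 and from 2.84 to 2.95. On that scale Klk5, Cstb and Spink5 overlapped between groups. These ratios depend on the markers chosen: Calml3, at 7007 ± 175 in control and 5656 ± 193 in eKO (SD, n = 3 each), makes up much of the control sum and fell, whereas Krt1 of the same list was 8.84-fold higher, more than Klk7 or Klk8. In skin, Klk6 (0.278 to 1.45 in control, 1.69 to 14.6 in eKO) and Cstb (1.85 to 2.62, 2.70 to 7.08) did not overlap on that scale and Cst6 did (16.2 to 28.1, 16.9 to 99.1). Klk5, Klk7, Klk8 and Spink5 overlapped between the skin groups as well. As the members were chosen on these values, the ratios are a description, and the part of cell makeup in them was not tested.

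The members did not follow 1 order of libraries. In eKO skin, replicate 1 was highest for Klk6, Cst6, Cstb and Spink5, and replicate 4 for Klk5, Klk7 and Klk8, while replicate 2 was lowest for 4 of the 7. Replicate 4 also held the highest eKO value of Flg, which encodes profilaggrin, at 49966 against 1143 to 5704 in the other eKO libraries, and of Casp14, a protease of profilaggrin processing, at 8770 against a group median of 1518. In control skin, replicate 3 was highest for 5 of the 7. Likeness between libraries of the same genotype was measured after centring log2 values within each genotype, which removes the genotype difference. By the root mean square difference over the 10 skin libraries, 10391 candidate genes were compared with the average of the 7 members. The nearest were Rab5a-ps, Rassf1, A130010J15Rik, Sh3bp2 and Gm16372, at 0.0988 to 0.159, where the average profile itself had a root mean square of 0.274. Over the 6 stem cell libraries, the nearest of 10464 candidates were Impad1, Cdt1, Zmat2, Rbm43 and Cetn2, at 0.0171 to 0.0353 against 0.162. Among so many candidates some near matches arise by chance, so the names are a description. None of these 10 genes passed the limma threshold between genotypes, with adjusted p of 0.0964 to 0.877.

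The rest of the protease network was examined in 4 lists of 93 genes that are not members. Of 19 other kallikreins, 0 passed the filter on low values in either tissue, so no test was made, and 12 in skin and 18 in stem cells were listed at 0. The 26 other epidermal proteases had 24 genes tested in skin, of which 1 rose and 0 fell, with a median log2 difference of 0.52. In stem cells 17 were tested, 9 rose and 0 fell, with a median of 0.55. Over all genes tested in stem cells, 10.7% rose and 8.74% fell, and the counts of the lists are given beside these shares. Those counts are a description only, as the lists were drawn up with earlier results of these data known. The median of all tested genes was 5.91e-05 in skin and -0.03 in stem cells.

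Among these proteases, Ctsd, the lysosomal aspartic protease cathepsin D, rose in skin from 254 ± 27.0 to 432 ± 74.1 (SD, n = 5 each, log2 difference 0.75, SE 0.14, limma adjusted p 0.0466). Its call was lost in 9 of 10 fits that left out 1 library (all but the one without eKO replicate 2), with a limma adjusted p of up to 0.115, and edgeR called 0 of the 93 listed genes in skin, with 12 at an unadjusted p under 0.05. In stem cells, Casp14 rose from 91.1 ± 9.21 to 908 ± 64.5 and Ctsc, cathepsin C, from 179 ± 22.9 to 1364 ± 193 (SD, n = 3 each, limma adjusted p 5.58e-08 and 8.52e-08). Ctsb, Blmh, Tmprss13 and Lgmn rose by log2 differences of 0.78, 0.90, 1.53 and 0.94 (limma adjusted p 1.02e-05, 2.93e-04, 0.00144 and 0.00898). Legumain, encoded by Lgmn, is a protease that cystatin M/E inhibits. These 6 kept their call in all 6 fits that left out 1 stem cell library.

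The 33 other protease inhibitors went in both directions. In skin 0 of 19 tested passed in limma (median -0.06), and the smallest p were those of Serpina12 and Slpi. Serpina12 encodes vaspin, a serpin that inhibits Klk7, and was at 1281 to 1826 in control and 473 to 1151 in eKO skin, with no overlap (log2 difference -0.99, SE 0.21, limma adjusted p 0.0712). Slpi, a secreted inhibitor of serine proteases, was at 31.8 ± 23.2 and 144 ± 74.0 (SD, n = 5 each, log2 difference 2.29, limma adjusted p 0.0941). In stem cells 15 inhibitors were tested, 3 rose and 2 fell, with a median of 0.05, counts near the shares over all genes. Serpina12 fell from 62.5 ± 8.89 to 6.91 ± 9.27 (SD, n = 3 each, log2 difference -3.88, SE 0.88, limma adjusted p 0.00838), and without control replicate 1 its limma adjusted p was 0.052. Timp2, an inhibitor of metalloproteases, fell by 0.49 on the log2 scale (limma adjusted p 0.00231).

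Serpinb7, Cst3 and Serpinb2 rose in stem cells by log2 differences of 0.76, 0.78 and 0.45 (limma adjusted p 0.0109, 0.0143 and 0.0317). Cst3 encodes cystatin C, a secreted relative of cystatin M/E. Serpinb7 lost its call without control replicate 3 (limma adjusted p 0.0571), and Cst3 without control replicate 1 or 2 (up to 0.0733). Serpinb2 lost it in 5 of the 6 fits that left out 1 library, all but the one without eKO replicate 1 (up to 0.118).

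The list of substrates, receptors and other targets has 15 genes. In skin 0 of 12 tested passed in limma (median 0.20), and the smallest p were those of Flg, with a log2 difference of 1.57 (limma adjusted p 0.453), and Dsg1a, the desmosomal cadherin desmoglein 1, with -0.33 (0.475). In stem cells 9 were tested, 3 rose and 2 fell (median 0.15). Tgm3, a transglutaminase of the cell envelope, rose from 13.6 ± 5.80 to 134 ± 13.4 and Flg2, a relative of profilaggrin, fell from 141 ± 36.3 to 7.34 ± 8.52 (SD, n = 3 each, limma adjusted p 1.63e-04 and 0.00125). Both kept their call in all 6 fits that left out 1 library.

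In stem cells, genes for proteins of the corneodesmosome changed in opposite directions. Dsc1, desmocollin 1, rose by 2.21 (SE 0.65, limma adjusted p 0.0304) and Dsg1a by 0.33 (limma adjusted p 0.0479), whereas Cdsn, corneodesmosin, went from 177 ± 48.7 to 85.6 ± 36.7 (SD, n = 3 each, log2 difference -1.09, limma adjusted p 0.0305). Each of the 3 calls was lost in several of the 6 fits that left out 1 library: 4 for Dsc1 (control replicates 2 and 3, eKO replicates 1 and 3, up to 0.0987), and 5 each for Dsg1a (all but eKO replicate 1, up to 0.2) and Cdsn (all but eKO replicate 2, up to 0.159). Dsg1a lost its call in 9 of 14 alternatives in all, with a pseudocount of 0.5, no filter, a value minimum of 1 and library totals among them, and Dsc1 also with no filter. In skin none of the 3 passed, at -0.18 for Dsc1, -0.33 for Dsg1a and 0.27 for Cdsn (limma adjusted p 0.785, 0.475 and 0.52). Their signs, opposite to those in stem cells, are therefore not read as a result. Dsg1b of the same list did not pass either, at 1.02 in stem cells and 0.24 in skin (limma adjusted p 0.0979 and 0.467). The receptor F2rl1, which trypsin-like kallikreins can activate, did not pass in either tissue.

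**Figure D5:**
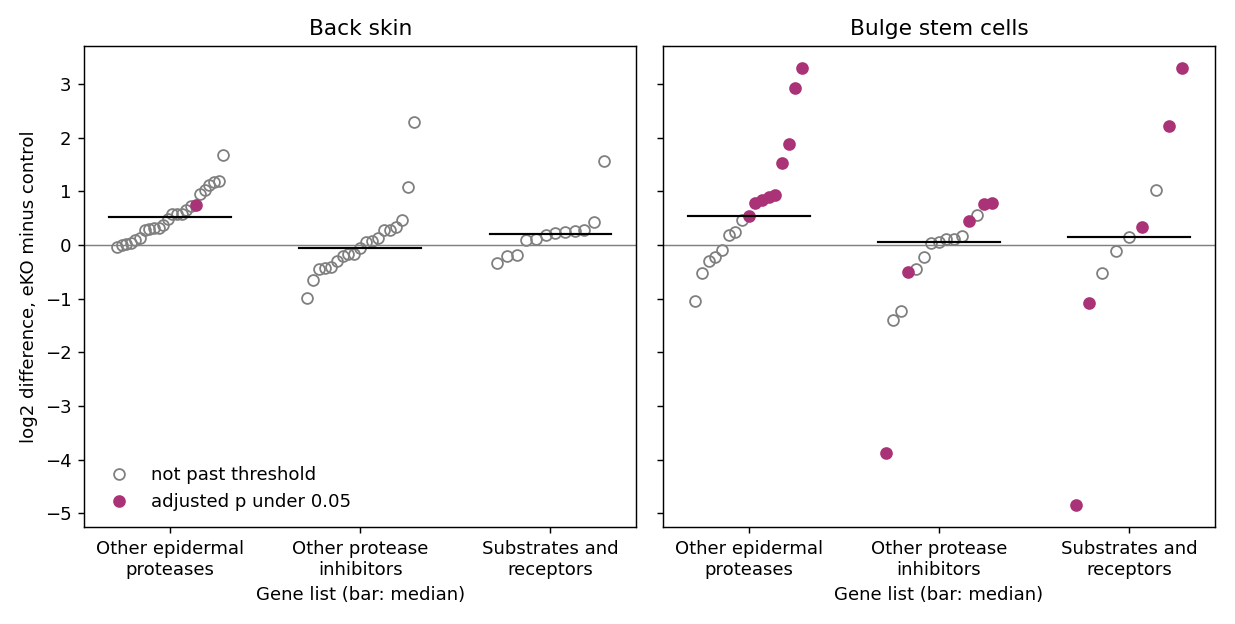
log2 difference, eKO minus control, of each tested gene of 3 lists in back skin (left) and bulge stem cells (right), with filled points for genes past the limma threshold and a bar at the list's median. In skin 1 protease point is filled, and in stem cells 9 proteases, 5 inhibitors and 5 targets are, with Flg2 and Serpina12 lowest.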

How the data were processed

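Skin and stem cell libraries were read from 1 table each. The authors deposited a signal per gene, namely read counts divided by 1 size factor per library; 100% of nonzero values were whole multiples of the library's step (tolerance 0.01), which gave back whole reads. Per the submitters' processing notes, featureCounts and DESeq2 were used for skin and GRCm39 for both tissues; other steps are not given in the sources used here. The 2 tables were fitted separately on log2(value + 1) with limma 3.58.1, whose prior variance followed the mean level. A gene entered when at least 5 skin or 3 stem cell libraries reached 10, with Benjamini-Hochberg adjustment over all genes and a threshold of 0.05. The method was tested on simulated counts with the same dispersion for all genes and no library standing apart. That setting is simpler than the skin libraries, so it does not show how the fit behaves on them. Alternatives used edgeR 4.0.16 and DESeq2 1.42.0 on the recovered reads, other pseudocounts, filters, scaling and covariates, a replicate block, and fits leaving out libraries. Floors of 3 reads cover counting error only, whereas standard errors come from the variance between libraries in the limma fit. Symbols came from a table of Ensembl IDs and names, with older symbols matched through RefSeq (GRCm38.p6); 94.1% of skin and 91.4% of stem cell gene IDs matched. Exon lengths came from GENCODE M21.

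Members and lists were chosen with earlier results of these data known. Named were all 10 members, up to 6 genes per list and tissue with the smallest p past the threshold (or 2 where none passed), and the 5 genes nearest the members' average profile among those with at least 0.8 times its root mean square.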

Additional observations from a re-analysis of the deposited data

Results flagged for a closer look

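The highest of the 5 eKO skin libraries stood apart from the rest of its group for Klk8, at 1534 with the next library at 639 (a gap of 0.754 of the group's range). The same library, eKO replicate 4, stood apart for Flg, at 49970 with the next at 5704 (a gap of 0.907). In both cases the gap, taken on values not in logs, exceeded Dixon's critical value. For normally distributed values chance alone exceeds it in about 1 of 20 groups, and 24 groups were examined. The gaps were not examined on the log2 scale used for the fits, so the flags hold for the unlogged values only.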

How the results depend on the processing

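None of the 7 members fitted in skin (19 alternatives) or the 6 fitted in stem cells (14) changed direction. The count of all genes past the threshold in skin was 62. It became 37 with no filter on low values, 32 with scaling to library totals, 656 in DESeq2, 151 with the hair matrix and shaft score as a covariate, and 0 without the 2 libraries low in Y-linked genes (1790 at an unadjusted p under 0.05). It ran from 10 (without eKO replicate 1) to 57 when 1 library was left out; 8 of the 10 fits gave 10 to 23. Of the listed network genes, 1 passed in skin. That count was 7 in DESeq2, and 0 with no filter, with a minimum of 1, with library totals, in edgeR, and without the 2 libraries low in Y-linked genes (at an unadjusted p under 0.05, 13, 13, 14, 12 and 6 genes). It ran from 0 to 2 when 1 library was left out. In stem cells the count of 2673 ran from 1519 to 2620 when 1 library was left out (1519, 1541 and 1769 without control replicates 1, 2 and 3) and the network count of 19 from 12 (without control replicate 3) to 16, and scaling to library totals gave 1271 genes higher and 1537 lower, against 1468 and 1205. With the replicate block the counts were 2696 and 19, and Klk5 lost its call. Same-numbered stem cell libraries did not deviate together (correlations of -0.0602, -0.018 and -0.0256), and no library correlated best with its own number, so the numbers were not taken as pairs. Depth limits Klk6 in stem cells, where 0 reads in a control library allow up to 3.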
